A study of Homo sapiens with 12 samples.

Results

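Keratins are the intermediate filament proteins of epithelial cells, and their genes were followed across all arrays of a factorial experiment with dihydrotestosterone (DHT) and doxycycline (dox). A gene was counted as a keratin when its symbol was KRT followed by a number and at most 1 letter from A to C, so that keratin-associated proteins were left out. By this rule 49 of the 20046 genes with a named probe were keratins, read by 58 probes. They were divided by where they are normally expressed into 5 simple, 4 other epithelial, 17 stratified, 9 hair follicle sheath and 14 hair shaft keratins. By sequence type 28 were type I and 21 type II. All 21 type II genes and KRT18 lie on chromosome 12 in the RefSeq table (GRCh38.p14), and the other 27 type I genes on chromosome 17. The RefSeq gene table lists 55 keratin symbols, and KRT6A, KRT6B, KRT17, KRT81, KRT82 and KRT86 were not analysed here.

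The 12 arrays were single-colour Illumina BeadChips with biotin-labelled total RNA of C4-2B/Rx2dox cells, labelled as a derivative of the C4-2B prostate cancer line in which dox induces the bone transcription factor RUNX2. The 4 groups of 3 arrays, called biological triplicates by the submitters, received DHT with dox, DHT (an androgen) alone, dox alone, or ethanol vehicle. Cells of all groups were grown in RPMI with 10% FBS, and for 48 h before treatment the medium lacked phenol red and its serum (5%) was charcoal-stripped, which holds little steroid. Treatment lasted 48 h, at a dox concentration that the labels put at 250 µg/ml and a DHT concentration that they put at 10 mM, units that were not resolved here. All groups are of the same line. Its number of clones is not given in the sources used here, and cells without the inducible gene that received dox were not analysed here, so that a change with dox cannot be told apart from an effect of dox itself.

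Keratin filaments are built from pairs, each of 1 type I and 1 type II protein. KRT8 with KRT18 is the pair of simple, single-layered epithelia, and KRT7, KRT19 and KRT20 join it in ducts and glands, urothelium or gut. KRT5 with KRT14 is the pair of basal cells in stratified epithelia, KRT1 with KRT10 that of the upper epidermis, KRT4 with KRT13 that of moist stratified linings such as the oesophagus, and the KRT6 proteins with KRT16 that of wounded or hyperproliferating epidermis. In the prostate, luminal cells are known for KRT8 and KRT18 and basal cells for KRT5 and KRT14. Hair keratins harden the hair shaft and are not a normal product of glandular cells.

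Values are probe intensities. The background limit was 147.6 units, which 95% of the readings from 629 probes for defensins, taste and olfactory receptors and keratin-associated proteins did not exceed, and a keratin counted as above background where the mean log2 intensity of a group lay over it. Changes are differences of mean log2 intensity with their SE (n = 3 arrays a group), and because the deposited intensities still hold background, some are also given after the median of these background probes was subtracted from each array. The brighter probe of RUNX2, the gene that dox is meant to induce, read 331.1, 258.6 and 321.9 with DHT and dox, 313.0, 273.9 and 270.9 with DHT, 293.1, 271.7 and 244.6 with dox, and 210.3, 206.8 and 225.8 with vehicle. The vehicle arrays were below all others, and those with DHT and dox, with DHT and with dox overlapped. Its log2 change was 0.33 ± 0.10 for dox against vehicle (limma adjusted p = 0.0160) and 0.082 ± 0.10 for DHT with dox against DHT (limma adjusted p = 0.578). A second RUNX2 probe read 174.8, 158.1 and 144.1 with DHT and dox, 175.2, 145.7 and 162.8 with DHT, 163.2, 159.5 and 181.3 with dox, and 160.1, 179.2 and 168.7 with vehicle. All groups overlapped on this second probe. Whether these probes read an induced copy is not given in the sources used here. The lineage genes went against the labelled prostate line. Of 8 prostate luminal markers with a probe, 3 were above background in a group and 2 (TMPRSS2 and SLC45A3) on all arrays. KLK2, FOLH1 and STEAP2 were above the limit on 0 arrays, and KLK3, which encodes prostate-specific antigen, reached 178.6 on 1 array. Of 10 breast luminal markers 8 were above background in a group, with the oestrogen receptor gene ESR1 at 2157 to 4711, and with 0 arrays over the limit for ANKRD30A and SCGB2A2. The cells are therefore called here only by their label.

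Keratins of glandular epithelium were measurable and most keratins of stratified epithelium and hair were not. Of the 49 keratins, 15 were above background in at least 1 group, 8 in all 4 groups and 6 on all 12 arrays. By class these were 5 of 5 simple keratins (KRT7, KRT8, KRT18, KRT19 and KRT20), 3 of 4 other epithelial keratins (KRT23, KRT24 and KRT80), 6 of 17 stratified keratins (KRT4, KRT9, KRT10, KRT13, KRT15 and KRT16), 0 of 9 hair follicle sheath keratins and 1 of 14 hair shaft keratins (KRT83). The 6 on all arrays were KRT7, KRT8, KRT10, KRT18, KRT19 and KRT80, and KRT24 and KRT83 joined them as above background by their means in all groups. With DHT and dox 11 keratins were above background, with DHT 11, with dox 12 and with vehicle 12.

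**Figure D1:**
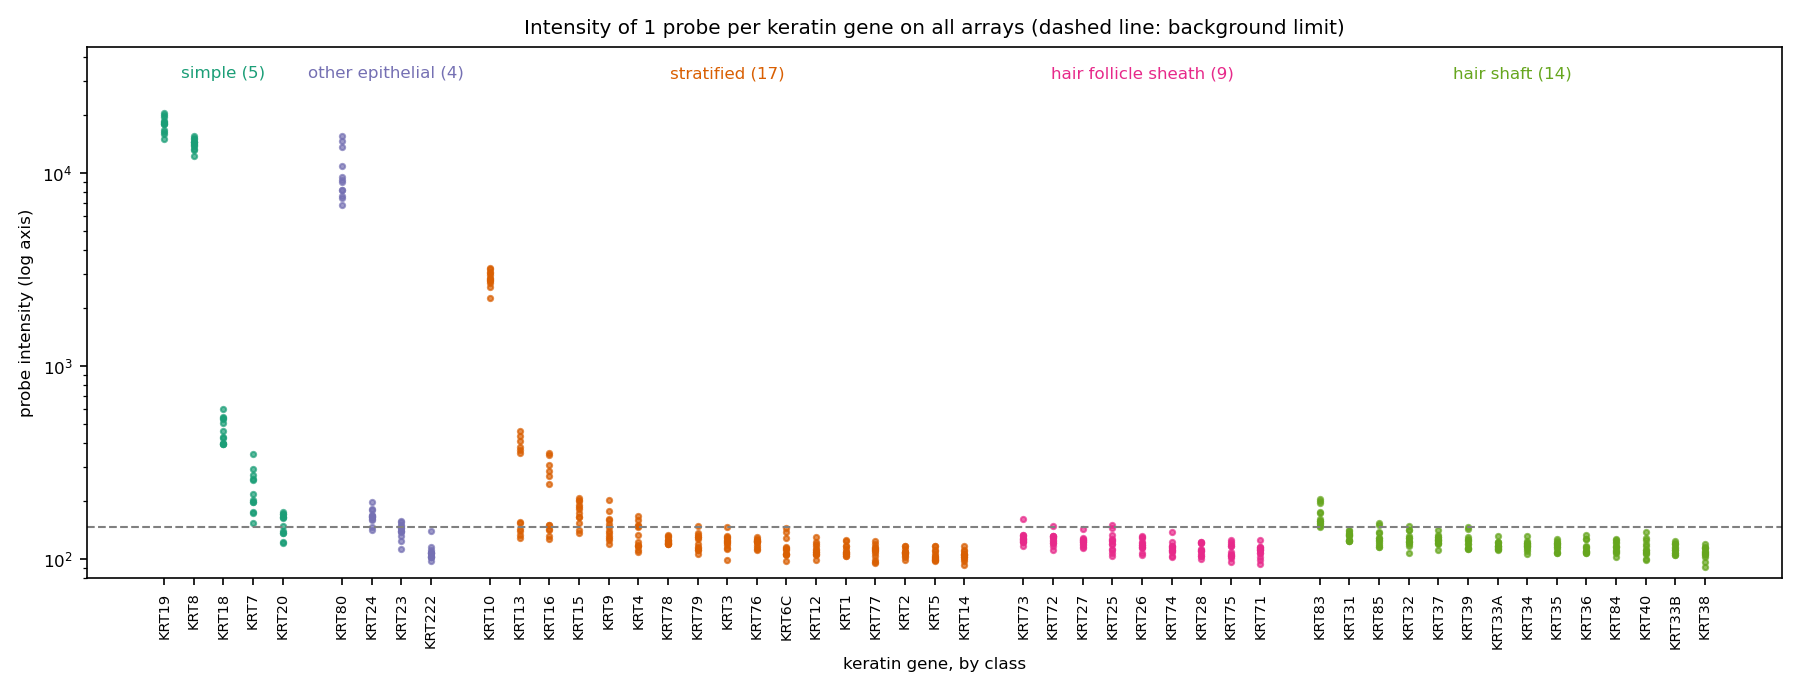
Intensity of 1 probe for each of 49 keratin genes (log axis, linear intensity units), by class along the horizontal axis; each of the 12 points of a gene is an array, and the dashed line is the background limit of 147.6. All 5 simple keratins and 6 of 17 stratified ones rise above the line in some group, and 0 of 9 hair follicle sheath keratins do; each probe has its own brightness, so heights are to be read against the line and not between genes.

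The 34 other keratins were above background in 0 groups and were not tested. In total 28 of the 49 were above the limit on 0 arrays. The basal pair KRT5 (98.5 to 117.6) and KRT14 (93.8 to 117.2) stayed below it on every array, although 5 of 6 other basal epithelial markers with a probe were above background in a group, with ITGB4, LAMB3 and CDH3 on all arrays. The epidermal type II keratin KRT1 lay between 104.3 and 125.7 and was above the limit on 0 arrays, whereas KRT10, its usual partner, was above it on all 12. KRT6C, the KRT6 gene measured here and a usual partner of KRT16, lay between 98.2 and 145.8. On the dox arrays KRT6C read 129.5 to 145.8, against 112.5 to 116.1 with vehicle, all under the limit, and without a filter on dim probes it was called higher in dox against vehicle (0.26, limma adjusted p = 0.0153) and lower in DHT with dox against dox (-0.34, limma adjusted p = 0.0151). Among the stratified keratins below background KRT79 reached 148.4 on 1 array, among the sheath keratins KRT73 reached 162.3 on 1 array, among the hair shaft keratins KRT85 reached 154.4, with 2 arrays above the limit, and KRT222 reached 140.3. A probe below the limit bounds the level and does not show that the gene is silent.

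With dox some keratins rose and others fell. In dox against vehicle 4 of the 15 keratins tested were higher (limma adjusted p of 0.05 or less over all 12118 genes tested), namely KRT13, KRT16, KRT18 and KRT19, against 16.1% of all genes, and 4 were lower, namely KRT4, KRT7, KRT20 and KRT80, against 16.7% of all genes. Of the 15 keratins, 4 were higher in DHT with dox against DHT, namely KRT13, KRT15, KRT16 and KRT18, against 14.3% of all genes, and 5 were lower, namely KRT4, KRT7, KRT10, KRT80 and KRT83, against 19.2% of all genes. KRT4 (vehicle), KRT9 (dox) and KRT23 (DHT) were above background in 1 group only and were tested because they are high in it, so a difference from that group was partly set by the filter and these counts are not read against the background. Of the 8 keratins above background in all groups, 2 were higher and 2 lower in dox against vehicle, and 1 was higher and 4 lower in DHT with dox against DHT, with numbers too small to set against these shares. The median log2 change of the 15 was 0.019 in dox against vehicle, where that of all genes tested was -0.0062, and -0.14 in DHT with dox against DHT, where it was -0.016. These dox comparisons share no array. With KRT4, KRT9 and KRT23 left out, KRT13, KRT16 and KRT18 were higher and KRT7 and KRT80 lower in both, by their brightest probes. That is 5 of the 7 keratins called in the first (71.4%) and 5 of the 8 called in the second (62.5%), with 0 called in opposite directions. The same shares over all genes tested were not analysed here, so this overlap is not read as particular to keratins. In RNA from whole cultures, fewer cells that express a keratin and less RNA per cell cannot be told apart.

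**Figure D2:**
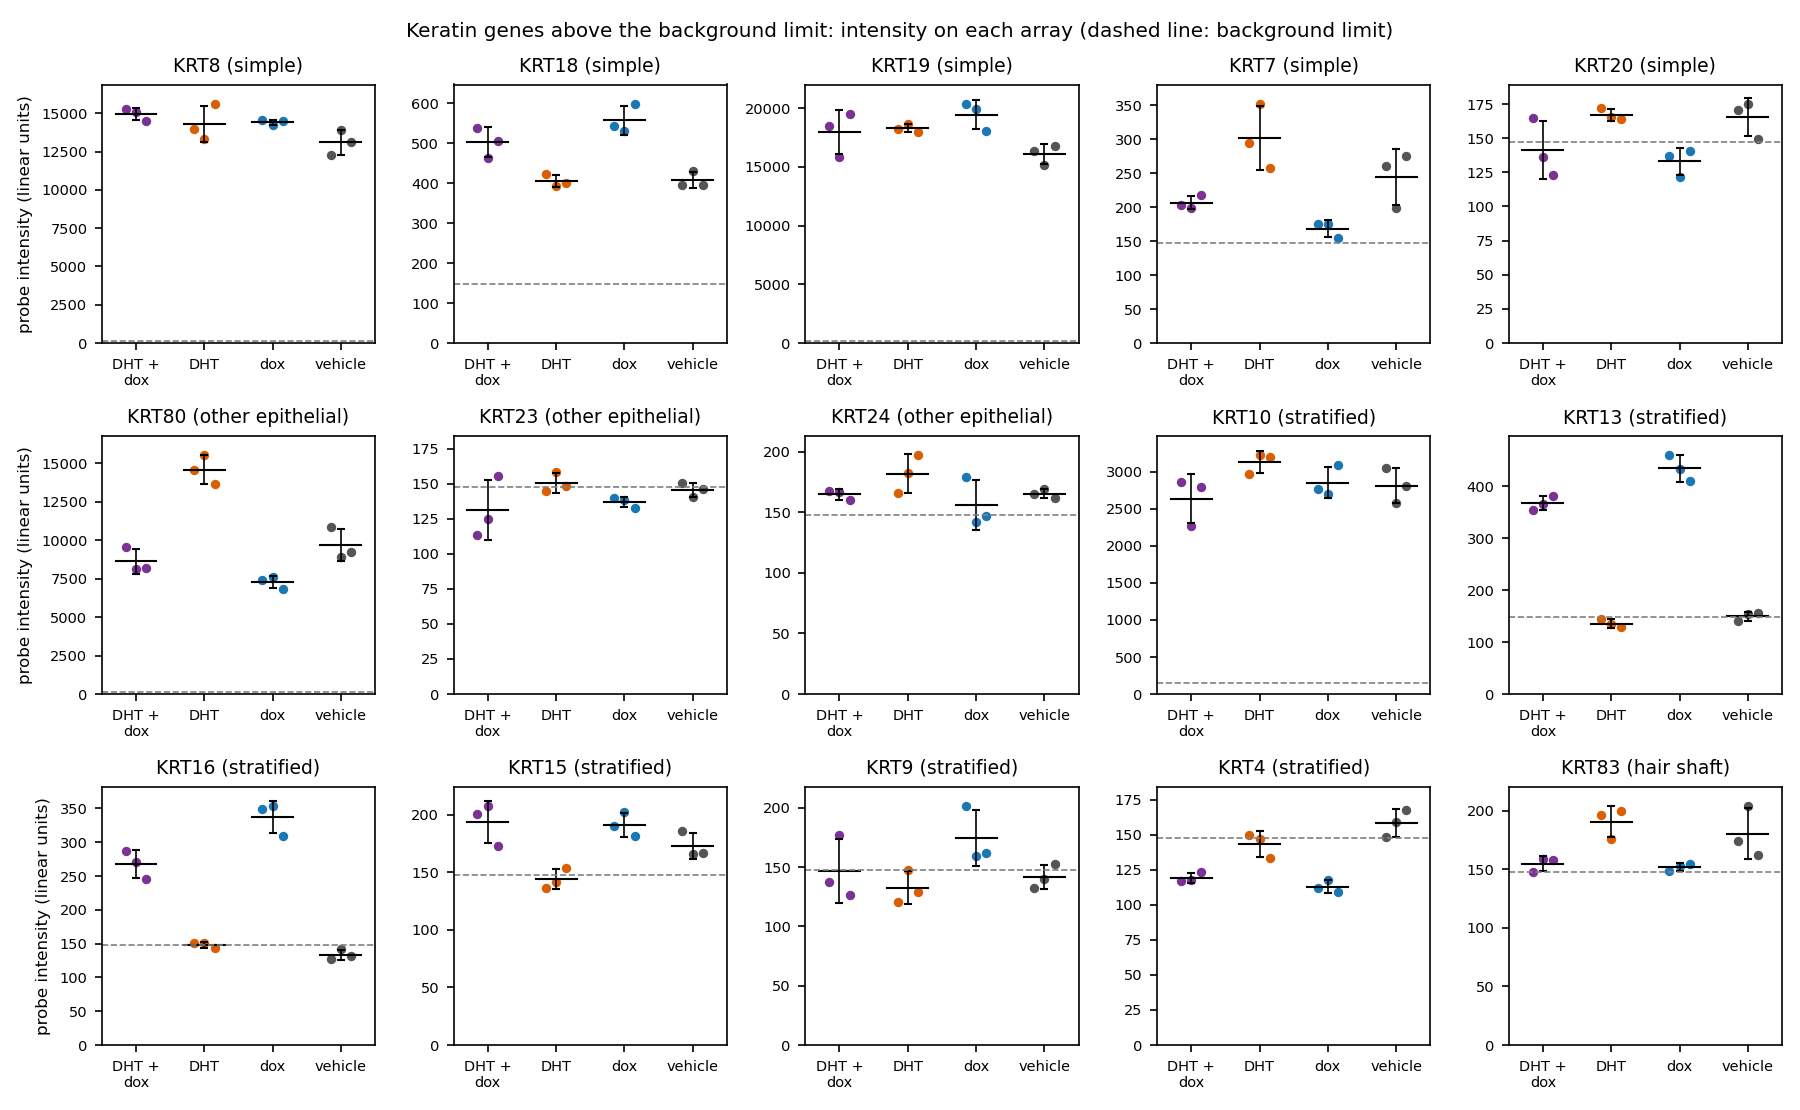
Intensity on each array (points, linear units) of the 15 keratin genes above background in a group, 1 panel per gene with its own axis from 0; bars are the mean and SD of 3 arrays and the dashed line is the background limit of 147.6. KRT13 and KRT16 stand high on the 6 arrays with dox and near or below the limit on the 6 without, while KRT80 is highest with DHT alone.

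Among the simple keratins KRT18 and KRT19 rose in dox against vehicle and KRT7 and KRT20 fell. KRT18 also rose and KRT7 fell in DHT with dox against DHT, where KRT19 and KRT20 did not pass the test. KRT8, the type II partner of KRT18, read 15287, 15075 and 14503 with DHT and dox, 13982, 13339 and 15634 with DHT, 14535, 14230.0 and 14475 with dox, and 12305, 13884 and 13119 with vehicle. All arrays with DHT and dox and all with dox alone were above those with vehicle, while the DHT arrays overlapped with every other group. The log2 change of KRT8 was 0.19 ± 0.064 (limma adjusted p = 0.0223) in DHT with dox against vehicle, and 0.14 ± 0.064 (limma adjusted p = 0.104) in dox against vehicle. The first of these lost its call without vehicle replicate 1 (0.15) or 3 (0.19), without DHT with dox replicate 1 (0.18) or 2 (0.19), and without a trend in the prior variance (limma adjusted p = 0.0590). KRT18 (ILMN_1803408), the type I keratin of the luminal pair, read 539.5, 463.2 and 506.7 with DHT and dox, 422.9, 393.4 and 401.3 with DHT, 543.9, 530.9 and 599.4 with dox, and 396.7, 430.4 and 396.7 with vehicle. All 6 arrays with dox were above all 6 without it. The log2 change was 0.45 ± 0.083 (limma adjusted p = 0.000217) for dox against vehicle, 0.31 ± 0.083 (limma adjusted p = 0.00632) for DHT with dox against DHT, and 0.30 ± 0.083 (limma adjusted p = 0.0067) for DHT with dox against vehicle. A second probe (ILMN_1730848) read 230.1, 227.0 and 226.5 with DHT and dox, 222.7, 185.6 and 185.3 with DHT, 237.8, 203.0 and 226.5 with dox, and 156.6, 178.8 and 209.4 with vehicle. Its arrays with DHT and dox were above all arrays without dox, but those with dox alone overlapped with vehicle and with DHT. Its log2 changes were 0.30 ± 0.11 (limma adjusted p = 0.0359) for dox against vehicle and 0.34 ± 0.11 (limma adjusted p = 0.0164) for DHT with dox against vehicle. For DHT with dox against DHT it gave 0.21 ± 0.11 (limma adjusted p = 0.142), which did not pass the test. By the brighter probe DHT alone gave -0.0069 ± 0.083 (95% interval -0.18 to 0.17), so a change of KRT18 by DHT beyond these bounds was not seen.

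KRT19, a type I keratin of ducts and glands, read 18430.5, 15853 and 19529 with DHT and dox, 18252, 18646 and 17985 with DHT, 20372, 19907 and 18059 with dox, and 16353, 15111 and 16737 with vehicle. The vehicle arrays were below all dox and all DHT arrays, and DHT with dox overlapped with every group. Dox gave a log2 change of 0.27 ± 0.071 (limma adjusted p = 0.00476). DHT against vehicle, at 0.19 ± 0.071 (limma adjusted p = 0.115), did not pass the test, nor did DHT with dox against vehicle, at 0.15 ± 0.071 (limma adjusted p = 0.0956), or DHT with dox against DHT, at -0.034 ± 0.071 (limma adjusted p = 0.759). Of 8 breast luminal markers tested, 4 were higher (TFF1, PGR, XBP1 and GREB1) and 3 lower (ESR1, GATA3 and FOXA1) in dox against vehicle. Of all genes tested, 16.1% were higher and 16.7% lower there. In DHT against vehicle 0 of these 8 markers were higher and 4 lower, beside 4.51% and 3.10% of all genes. The summed intensity of all 10 breast luminal markers with a probe was 62792 to 65787 with DHT and dox, 43257 to 46392 with DHT, 68435 to 70365 with dox, and 48971 to 50192 with vehicle. Such a sum is weighted to the brightest markers, and their part in the KRT19 result was not tested.

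KRT7, a type II keratin of simple and transitional epithelia, was lower with dox. It read 203.2, 199.1 and 217.6 with DHT and dox, 294.4, 352.0 and 258.0 with DHT, 174.7, 175.4 and 153.8 with dox, and 260.2, 197.9 and 274.5 with vehicle. Every dox array was below every vehicle array, and every array with DHT and dox below every DHT array. The log2 change was -0.53 ± 0.12 (limma adjusted p = 0.00154) in dox against vehicle and -0.53 ± 0.12 (limma adjusted p = 0.00137) in DHT with dox against DHT, and both were larger with the background subtracted (-1.32 and -1.03). KRT20, a type I keratin of gut and of urothelial surface cells, read 165.1, 136.2 and 123.2 with DHT and dox, 172.0, 165.6 and 163.7 with DHT, 136.9, 121.9 and 140.8 with dox, and 170.9, 175.3 and 149.3 with vehicle. All 3 dox arrays were under the limit and below all vehicle arrays, and the values with DHT and dox overlapped with those of the other groups. Vehicle was at least 1.12-fold brighter than dox, at a fitted log2 change of -0.31 ± 0.10 (limma adjusted p = 0.0245), which was -1.13 with the background subtracted. The log2 change of KRT20 in DHT with dox against DHT was -0.25 ± 0.10 (limma adjusted p = 0.0671). The call in dox against vehicle was lost without vehicle replicate 1 (-0.28) or 2 (-0.26) or dox replicate 2 (-0.25). A second KRT20 probe was under the limit by its mean in every group and was not tested. It averaged 123.4 with DHT and dox, 126.5 with DHT, 109.2 with dox and 113.7 with vehicle. Its dox and vehicle arrays overlapped. Of 5 uroplakin markers of urothelium, 0 were higher and 3 lower in dox against vehicle, beside 16.1% and 16.7% of all genes. Their summed intensity was 1770 to 1827 with DHT and dox, 5062 to 5971 with DHT, 1561 to 1666 with dox, and 4330 to 4551 with vehicle, with 5 of 5 above background in a group and UPK1A, UPK2 and UPK3B on all arrays. Their part in the result was not tested.

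KRT80, a type II keratin found near desmosomes, was the 1 keratin of 15 that passed the test in DHT against vehicle. Its brighter probe (ILMN_1705814) read 9557, 8132 and 8195 with DHT and dox, 14592, 15573 and 13643 with DHT, 7404, 7636 and 6859 with dox, and 10869.5, 8943 and 9209.5 with vehicle. The DHT arrays were above all others, the dox arrays below all others, and those with DHT and dox overlapped with vehicle. The log2 change was 0.60 ± 0.080 (limma adjusted p = 5.71e-05) for DHT against vehicle, -0.40 ± 0.080 (limma adjusted p = 0.000463) for dox against vehicle, and -0.76 ± 0.080 (limma adjusted p = 1.91e-07) for DHT with dox against DHT. A second probe (ILMN_2366445) read 645.2, 642.7 and 637.5 with DHT and dox, 1481, 1324 and 1449 with DHT, 605.2, 583.1 and 517.7 with dox, and 1039, 1190.3 and 887.4 with vehicle. It had the same order of groups but larger dox changes, with log2 changes of -0.86 ± 0.093 for dox against vehicle, -1.14 ± 0.093 for DHT with dox against DHT, and 0.46 ± 0.093 for DHT against vehicle. With the mean of both probes the change in dox against vehicle was -0.63 and KRT80 was also lower in DHT with dox against vehicle (-0.42, limma adjusted p = 0.000114).

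**Figure D3:**
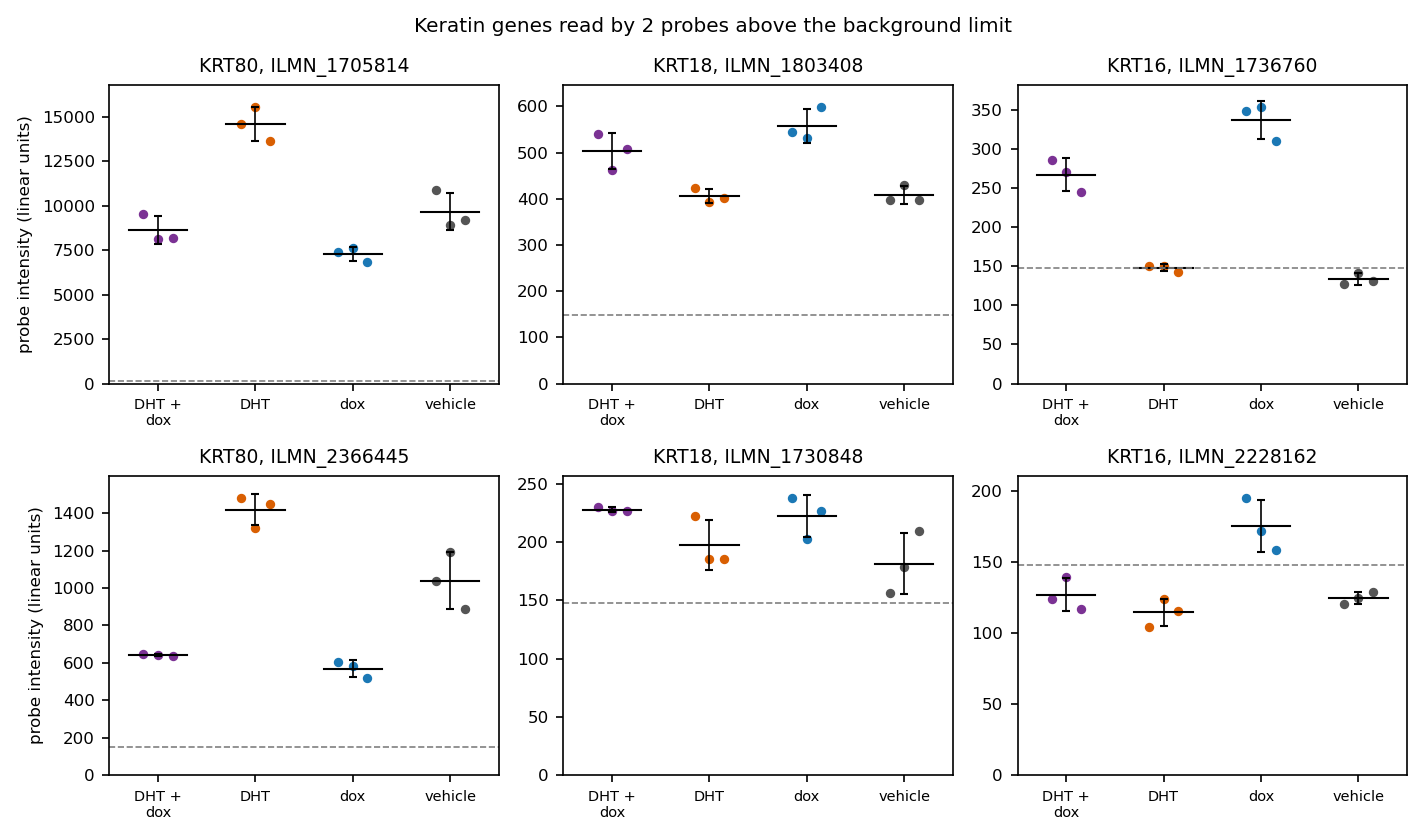
Intensity on each array (points, linear units, axes from 0) of both probes of KRT80, KRT18 and KRT16 above background in a group, with the mean and SD of 3 arrays and the background limit (dashed, 147.6). Both KRT80 probes are highest with DHT and lowest with dox, and the second KRT16 probe is above the limit with dox alone.

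Of the other epithelial keratins, the type I genes KRT23 and KRT24 passed the test in 0 of 6 comparisons, with 0 calls also for KRT9. KRT24 read 167.7, 166.9 and 159.9 with DHT and dox, 165.9, 182.5 and 197.6 with DHT, 179.4, 141.7 and 146.8 with dox, and 165.3, 169.1 and 161.5 with vehicle. Its groups overlapped throughout, with log2 changes between -0.14 and 0.14, the interaction included. KRT23 reached 158.7 with DHT and was above the limit on 4 of 12 arrays. At an unadjusted p under 0.05 KRT23 was lower in DHT with dox against DHT (log2 change -0.21 ± 0.099, limma adjusted p = 0.113). KRT23 passed the filter through DHT only, so this difference from DHT was partly set by the filter.

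KRT13 and, by its brighter probe, KRT16, both type I keratins of stratified epithelium, were higher with dox, with or without DHT. KRT13 (ILMN_1721218) read 354.6, 366.4 and 381.6 with DHT and dox, 144.1, 134.3 and 128.5 with DHT, 461.0, 433.1 and 409.9 with dox, and 140.0, 154.0 and 156.1 with vehicle. The 6 arrays with dox were all above the 6 without it, which lay near or below the limit. The log2 change was 1.53 ± 0.085 (limma adjusted p = 1.25e-11) for dox against vehicle, a 2.90-fold rise, and 1.29 ± 0.085 (limma adjusted p = 1.66e-10) for DHT with dox against vehicle. With DHT as the baseline, where KRT13 was above the limit on 0 arrays, DHT with dox was at least 2.49-fold brighter (fitted log2 change 1.44 ± 0.085, limma adjusted p = 2.64e-11). With the background subtracted, these log2 changes became 3.35, 3.01 and 3.52 in the same order. KRT4, the type II keratin that KRT13 usually pairs with, passed the filter through vehicle only and read 116.7, 117.7 and 123.4 with DHT and dox, 150.2, 147.1 and 133.1 with DHT, 111.9, 117.9 and 109.0 with dox, and 148.3, 159.0 and 167.9 with vehicle. Its arrays with dox, with or without DHT, were all below the limit and below all vehicle arrays. Vehicle was at least 1.07-fold brighter than dox (fitted log2 change -0.49 ± 0.085, limma adjusted p = 0.000119) and at least 1.07-fold brighter than DHT with dox (fitted log2 change -0.41 ± 0.085, limma adjusted p = 0.000646). Subtracting the background gave -0.97 for both. In DHT with dox against DHT the fitted log2 change of KRT4 was -0.27 ± 0.085 (limma adjusted p = 0.0192), but with the DHT mean also under the limit it gives no bound on a fold. This last call was lost with the background subtracted (-0.39) and without DHT replicate 1 (-0.23) or 2 (-0.25) or DHT with dox replicate 1 (-0.25) or 2 (-0.26).

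KRT16 (ILMN_1736760) read 286.3, 270.1 and 245.4 with DHT and dox, 150.8, 150.7 and 142.9 with DHT, 348.6, 354.1 and 309.6 with dox, and 127.1, 141.5 and 131.6 with vehicle. As with KRT13, all 6 arrays with dox were above all 6 without it. Dox was at least 2.28-fold brighter than vehicle (fitted log2 change 1.34 ± 0.088, limma adjusted p = 1.95e-10), and DHT with dox at least 1.81-fold (fitted log2 change 1.00 ± 0.088, limma adjusted p = 1.43e-08), since KRT16 was above the limit on 0 vehicle arrays. In DHT with dox against DHT the log2 change was 0.85 ± 0.088 (limma adjusted p = 1.76e-07). These were 3.38, 2.82 and 2.33 with the background subtracted, and 0.91, 0.51 and 0.50 with the mean of both KRT16 probes. The second probe was above the limit on the 3 dox arrays only, at 194.8, 171.8 and 158.5, against 120.3, 124.4 and 128.9 with vehicle. Its log2 change was 0.49 ± 0.097 for dox against vehicle, but 0.022 ± 0.097 for DHT with dox against vehicle. For DHT with dox against DHT it was 0.15 ± 0.097 (limma adjusted p = 0.271), and for DHT with dox against dox -0.46 ± 0.097 (limma adjusted p = 0.00839). This probe passed the filter through dox only, so its differences from dox were partly set by the filter. KRT16 has near-identical pseudogene copies, and a probe named for 1 of them, KRT16P2, averaged 216 with DHT and dox, 133 with DHT, 300.1 with dox, and 142 with vehicle. Its log2 change for dox against vehicle was 1.07 ± 0.10, so the readings of KRT16 and its copies cannot be told apart here.

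KRT15, a type I keratin of basal cells, read 200.7, 207.8 and 173.0 with DHT and dox, 136.4, 141.9 and 153.3 with DHT, 190.4, 202.2 and 181.3 with dox, and 185.9, 166.2 and 166.5 with vehicle. All DHT arrays were below all arrays of the other groups. KRT15 rose in DHT with dox against DHT, with a log2 change of 0.43 ± 0.092 (limma adjusted p = 0.00101) and of 1.53 with the background subtracted, while dox against vehicle gave 0.15 ± 0.092 (limma adjusted p = 0.242). DHT against vehicle, at -0.26 ± 0.092 (limma adjusted p = 0.087), missed the threshold and passed it with the background subtracted (-1.08, limma adjusted p = 0.0226). The summed intensity of 6 basal epithelial markers was 2187.5 to 2251 with DHT and dox, 2488 to 2614 with DHT, 2105 to 2319.5 with dox, and 2611 to 2737 with vehicle, and their part in the KRT15 result was not tested. KRT10, the epidermal type I keratin, read 2865, 2265 and 2790.3 with DHT and dox, 2971, 3234 and 3201 with DHT, 2766, 2698 and 3089.6 with dox, and 3048, 2585 and 2814 with vehicle. The arrays with DHT and dox were below those with DHT and overlapped with the other groups. The log2 change was -0.25 ± 0.086 (limma adjusted p = 0.0269), and it lost its call without DHT replicate 2 (-0.23) or 3 (-0.24) or DHT with dox replicate 2 (-0.15). KRT9, a keratin of palms and soles, read 137.4, 177.2 and 126.1 with DHT and dox, 120.6, 147.6 and 129.3 with DHT, 201.7, 159.6 and 162.2 with dox, and 132.0, 139.7 and 152.4 with vehicle. All dox arrays were above all vehicle arrays, and the log2 change of 0.30 ± 0.12 (limma adjusted p = 0.0622) missed the threshold. KRT9 passed the filter through dox only, so this difference from vehicle was partly set by the filter.

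KRT83, a type II keratin of the hair cortex, was above background by its mean in all groups, while the other hair keratins measured were below it in every group. It read 147.3, 158.6 and 158.0 with DHT and dox, 196.3, 175.6 and 200.1 with DHT, 148.2, 152.5 and 154.9 with dox, and 174.4, 204.3 and 162.3 with vehicle. All arrays with dox, with or without DHT, were below all arrays without it. The log2 change passed the test in DHT with dox against DHT, at -0.30 ± 0.093 (limma adjusted p = 0.0156) and -1.01 with the background subtracted, and missed it in dox against vehicle, at -0.24 ± 0.093 (limma adjusted p = 0.0508). The call was lost without DHT replicate 1 (-0.28) or 3 (-0.26) or DHT with dox replicate 1 (-0.27). KRT81 and KRT86, which resemble KRT83 closely in sequence, were not analysed here, and what they add to its reading was not tested.

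**Figure D4:**
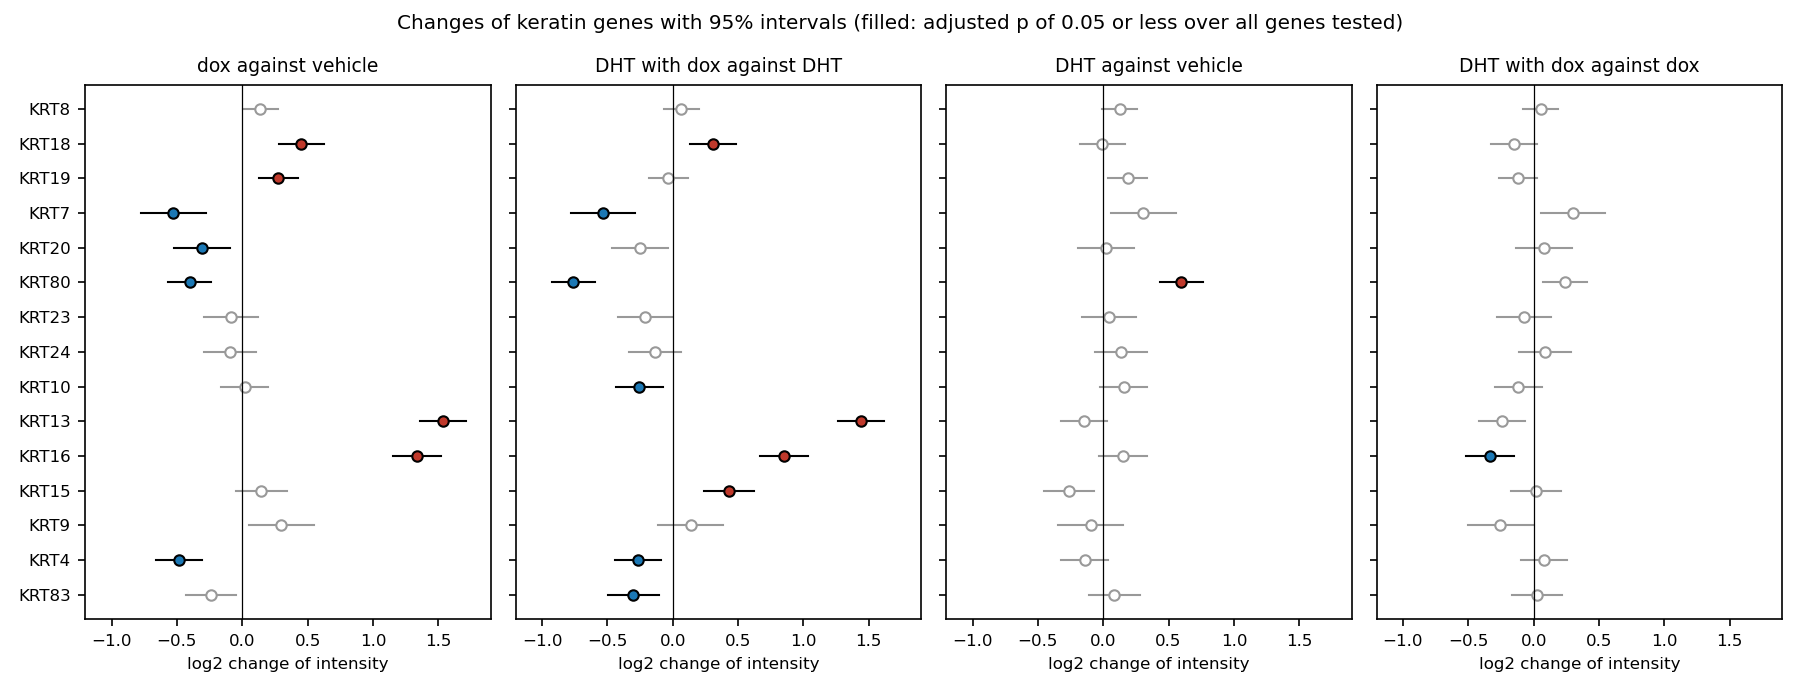
Log2 change of intensity (points) with 95% intervals (lines) for 15 keratin genes in 4 comparisons; filled points passed limma's test at an adjusted p of 0.05 over all 12118 genes, red higher and blue lower. KRT13 and KRT16 rise in both dox comparisons on the left, and KRT80 is the only keratin filled in DHT against vehicle.

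DHT changed few keratins and few of all genes tested, so the low count is not particular to keratins. In DHT against vehicle 1 of 15 was higher, KRT80, against 4.51% of all genes, and 0 were lower, against 3.10% of all genes by limma. At an unadjusted p under 0.05 there were 3 higher (KRT7, KRT19 and KRT80) and 1 lower (KRT15). The median log2 change of the 15 was 0.085, where that of all genes tested was 0.0029. With dox present, DHT lowered KRT16 (-0.34 ± 0.088, limma adjusted p = 0.0321), 1 of 15 against 2.24% of all genes, and raised 0, against 2.04% of all genes, with 3 lower and 2 higher (KRT7 and KRT80) at an unadjusted p under 0.05. KRT9, among these 3, passed the filter through dox only, so its difference from dox was partly set by the filter. The KRT16 call was lost with the background subtracted (-0.56, limma adjusted p = 0.158), without a filter on dim probes and with only the compared groups in the fit (limma adjusted p of 0.0539 and 0.0552), and without dox replicate 1 (-0.31) or 2 (-0.30) or DHT with dox replicate 2 (-0.35) or 3 (-0.28). The DHT change of KRT80 was 0.24 ± 0.080 with dox, limma adjusted p = 0.0944, against 0.60 ± 0.080 without dox.

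The combined treatment was set against vehicle and shares its vehicle arrays with both single comparisons. It gave 4 keratins higher (KRT8, KRT13, KRT16 and KRT18), against 16.6% of all genes, and 1 lower (KRT4), against 20.2% of all genes. KRT4 passed the filter through vehicle only, so its call was partly set by the filter and is not read against that share. KRT7 and, by its brighter probe, KRT80, both lower in dox against vehicle, did not pass the test here, with log2 changes of -0.23 ± 0.12 and -0.16 ± 0.080. The second KRT80 probe was lower in this comparison, at -0.68 ± 0.093 (limma adjusted p = 6.36e-06), so the 2 probes differ on KRT80. Whether the DHT change differs with dox was tested by the interaction, which subtracts the DHT change in cells without dox from the DHT change in cells with it. Among the keratins 0 were called higher, against 0.132% of all genes, and 0 lower, against 0.157% of all genes by limma. At an unadjusted p under 0.05 KRT16 (-0.49 ± 0.12), KRT80 (-0.36 ± 0.11), KRT19 (-0.31 ± 0.10) and KRT10 (-0.27 ± 0.12) were lower and KRT15 (0.28 ± 0.13) higher, with limma adjusted p between 0.123 and 0.48. The 95% interval for KRT13 ran from -0.35 to 0.16 and that for KRT7 from -0.36 to 0.34, so differences of this size between the DHT changes remain possible.

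For the keratins called in a comparison, RefSeq promoter sequence (GRCh38.p14, 250 bases before to 50 after the annotated start, minus strand, 5′ to 3′) was held for 4 of 12. They are shown because KRT20 and KRT4 were lower with dox, KRT10 lower with DHT and dox than with DHT, and KRT8 higher with both than with vehicle. Capitals mark matches on either strand to TGTGGT, a core letter pattern of RUNX sites, or to TATAAA, the letters of a canonical core-promoter box.
KRT20, chr17:40885193-40885492: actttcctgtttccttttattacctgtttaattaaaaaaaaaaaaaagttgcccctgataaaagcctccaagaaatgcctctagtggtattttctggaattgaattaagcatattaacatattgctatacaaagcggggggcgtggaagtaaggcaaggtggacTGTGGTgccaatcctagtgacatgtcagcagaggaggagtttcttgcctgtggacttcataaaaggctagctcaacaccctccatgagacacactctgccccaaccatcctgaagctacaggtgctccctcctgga
KRT4, chr12:52814067-52814366: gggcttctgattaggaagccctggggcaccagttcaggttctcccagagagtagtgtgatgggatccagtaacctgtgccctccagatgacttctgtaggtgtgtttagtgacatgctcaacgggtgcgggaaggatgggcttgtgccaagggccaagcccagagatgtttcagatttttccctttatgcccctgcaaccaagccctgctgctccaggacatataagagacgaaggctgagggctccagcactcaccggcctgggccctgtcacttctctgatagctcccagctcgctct
KRT10, chr17:40822565-40822864: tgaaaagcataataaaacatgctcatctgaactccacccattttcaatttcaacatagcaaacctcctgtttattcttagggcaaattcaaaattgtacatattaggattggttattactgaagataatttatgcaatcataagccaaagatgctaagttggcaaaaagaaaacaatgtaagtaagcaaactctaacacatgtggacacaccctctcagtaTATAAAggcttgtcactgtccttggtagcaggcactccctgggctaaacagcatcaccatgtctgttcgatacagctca
KRT8, chr12:52926420-52926719: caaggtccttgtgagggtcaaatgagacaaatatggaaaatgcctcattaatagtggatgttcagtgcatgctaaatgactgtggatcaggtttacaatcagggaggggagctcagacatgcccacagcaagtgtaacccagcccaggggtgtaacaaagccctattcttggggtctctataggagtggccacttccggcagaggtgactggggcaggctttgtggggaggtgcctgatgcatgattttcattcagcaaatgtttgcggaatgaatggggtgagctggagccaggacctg
KRT20 holds 1 match to TGTGGT, 86 bases before the start, and KRT10 holds 1 match to TATAAA, 29 bases before it. The other windows hold 0 matches to these, and all 4 hold 0 matches to AGAACA, letters that androgen receptor binding sites carry in pairs. Among 35116 promoters of the same length, 13.1% hold TGTGGT, 11.5% hold TATAAA and 14.8% hold AGAACA on either strand. The patterns do not overlap in letters at these positions, and a match is a description of the sequence only.

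Genes whose proteins work with keratins were followed as lists. Desmosomal and plakin proteins anchor keratin filaments at cell junctions, and of 13 tested 2 were higher and 3 lower in dox against vehicle, with a median log2 change of -0.056, where that of all genes tested was -0.0062 and 16.1% of them were higher and 16.7% lower. Of the same 13, 1 was higher and 7 lower in DHT with dox against vehicle (median -0.25), where the median of all genes was -0.017 and 16.6% were higher and 20.2% lower. PPL (periplakin) was lower in dox against vehicle, at -0.73 ± 0.089 (limma adjusted p = 1.52e-06), and also in DHT with dox against DHT, at -0.70 ± 0.089. With DHT added to dox, DSP (desmoplakin) and PKP1 (plakophilin 1) were lower, at -0.69 ± 0.089 and -0.64 ± 0.11. Of 13 proteins that bind keratins or take part in their turnover 3 were higher and 1 lower in dox against vehicle (median 0.077), with the chaperones HSPA8 (0.53 ± 0.061) and DNAJB6 (0.49 ± 0.065) higher and the autophagy receptor SQSTM1 (-0.35 ± 0.061) lower. Of 9 other intermediate filament genes 3 were higher and 1 lower (median 0.15). The 3 were those of the nuclear lamina, LMNA (0.46 ± 0.083), LMNB1 (0.50 ± 0.087) and LMNB2 (0.33 ± 0.086).

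Of 9 cornified envelope genes, whose products cross-link the surface of stratified epithelia, 2 were higher and 1 lower in dox against vehicle (median 0.16). CDSN, which encodes corneodesmosin, was higher with dox (0.76 ± 0.086, limma adjusted p = 5.70e-07), as KRT13 and KRT16 were, and S100A9 was higher with DHT (0.74 ± 0.094, limma adjusted p = 2.63e-05). Of 20 epithelial transcription regulators tested, 3 were higher and 10 lower in dox against vehicle (median -0.22), beside 16.1% and 16.7% of all genes. Of the same 20, 2 were higher and 10 lower in DHT with dox against DHT (median -0.21), beside 14.3% and 19.2% of all genes. In dox against vehicle the grainyhead factor GRHL3 was lower (-1.70 ± 0.12), as were ELF3 (-1.16 ± 0.085), SOX9 (-1.03 ± 0.089), ELF5 (-0.77 ± 0.087) and HOXC13 (-0.70 ± 0.077), the last known as an activator of hair keratin genes. KLF4, a factor of epidermal differentiation, was higher (0.62 ± 0.079, limma adjusted p = 2.68e-06). No test of a list as a whole, or of a list against all genes, was made.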

How the data were processed

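The deposited values are intensities on a linear scale. GenomeStudio is the tool named, per the submitters' processing notes, and its version and settings are not stated there. The deposited columns shared their quantiles (84.1 to 27321.9, median 137.6, sorted columns within 0.800 units), so no further normalization was applied. No value lay near 0, so background signal remained and compresses the fold changes of dim probes. Intensities below a floor of 20 would have been raised to it (0 were, without background subtraction), and log2 was taken. After background subtraction, readings under the same floor were raised to it.

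Probes were named through a platform annotation table and the RefSeq gene table of GRCh38.p14: 30113 of 47230 probes had 1 symbol, 8 had several and 17109 had none, and 30074 were matched by gene identifier. The background limit and calls above it used mean log2 intensity per group. Each gene above the limit in a group was tested by its probe with the highest mean, 12118 genes in all. limma 3.58.1 in R 4.3.3 (lmFit, eBayes with a trend) gave 1 linear model of the 4 groups over all arrays, with Benjamini-Hochberg adjustment over all genes tested for each of 6 comparisons and a threshold of 0.05. Probes of a gene were also fitted singly, over 16255 probes. Where a gene was above the limit on 0 arrays of the dimmer group, the fold is a bound ("at least"), with each dim array set to the higher of the limit and its own value. Values are means or log2 changes with SD or SE over 3 arrays a group, and the number of arrays limits the precision. The fit was checked on simulated data. Other steps ran in Python 3.11.15 (numpy 2.4.6, pandas 2.3.3), and matplotlib 3.10.9 drew the plots.

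The keratin classes, partner lists, tests and alternatives were chosen with earlier results of these data known. Keratins above the limit on at least 6 arrays or called in a comparison are given on every array. From a partner list, members called with a 1.5-fold change are named, or otherwise the 3 with the lowest p. Arrays were grouped by the treatment in their labels.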

Additional observations from a re-analysis of the deposited data

How the results depend on the processing

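Of 24 called changes of single keratins, 18 kept their call under all alternatives run, and over 548 alternative values 522 kept the call, 26 lost it and 0 reversed. The lost calls, given in the report, concern KRT4, KRT10 and KRT83 in DHT with dox against DHT, KRT8 in DHT with dox against vehicle, KRT16 in DHT with dox against dox, and KRT20 in dox against vehicle. With the background subtracted 2 keratins were called in DHT against vehicle (KRT80 and KRT15) in place of 1, and 0 in DHT with dox against dox in place of 1. The same step gave 10 in place of 8 in dox against vehicle, with KRT83 (-0.84) and KRT9 (1.13) added. It gave 8 in place of 9 in DHT with dox against DHT, and 6 in place of 5 in DHT with dox against vehicle (KRT83 added, -0.75). KRT83 was also called in dox against vehicle with the limit at the 99th percentile, the mean of probes, or no trend. The count in DHT with dox against dox was also 0 with only the groups compared. Leaving out 1 array at a time gave 7 to 9 keratins in dox against vehicle, 7 to 10 in DHT with dox against DHT, 4 to 6 in DHT with dox against vehicle, 1 in DHT against vehicle, 0 to 1 in DHT with dox against dox (0 without dox replicate 1 or 2 or DHT with dox replicate 2 or 3) and 0 for the interaction. It added KRT83 in dox against vehicle without vehicle replicate 3 (-0.31) or DHT replicate 2 (-0.24), and KRT9 without DHT with dox replicate 2 or 3 (0.30). In DHT with dox against DHT it added KRT20 without DHT with dox replicate 1 (-0.37) and KRT23 without its replicate 3 (-0.34). In DHT with dox against vehicle it added KRT7 without vehicle replicate 2 (-0.37), KRT20 (-0.30) and KRT83 (-0.29) without vehicle replicate 3, KRT20 (-0.35) and KRT80 (-0.24) without DHT with dox replicate 1, KRT19 without replicate 2 (0.24) and KRT23 without replicate 3 (-0.29). KRT9 passed the filter through dox only and KRT23 through DHT only. Their added calls in comparisons with those groups were partly set by the filter. Without a filter on dim probes KRT6C, below the limit on all arrays, was called in dox against vehicle and in DHT with dox against dox. The cause of these shifts was not tested. The number of keratins above background was 15, was 11 with the limit at the 99th percentile (175.3), and was 13 when at least 6 arrays had to exceed the limit.

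Same-numbered arrays of different groups had residual correlations of -0.121 to 0.208, with 1 of 18 pairs over 0.1, so the numbers were not taken to pair the arrays. With the replicate number as a block the counts were the same in every comparison: 8 in dox against vehicle, 1 in DHT against vehicle, 9 in DHT with dox against DHT, 1 in DHT with dox against dox, 5 in DHT with dox against vehicle and 0 for the interaction. Probes near the limit limit the precision: 7 of the 15 keratins were not above it in all groups, and the size of their fold changes depends on the background step.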

Other observations

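The 15 keratins above background were also divided by sequence type, a split chosen after the values were seen. Of the 10 type I keratins 4 were higher (KRT13, KRT16, KRT18 and KRT19) and 1 lower (KRT20) in dox against vehicle by limma, while of the 5 type II keratins 0 were higher and 3 lower (KRT4, KRT7 and KRT80). In DHT with dox against DHT, which shares no array with that comparison, 4 type I keratins were higher (KRT13, KRT15, KRT16 and KRT18) and 1 lower (KRT10), and 0 type II keratins were higher and 4 lower (KRT4, KRT7, KRT80 and KRT83). Of all genes tested, 16.1% were higher and 16.7% lower in the first comparison, and 14.3% higher and 19.2% lower in the second. KRT4 was above background with vehicle only, KRT9 with dox only and KRT23 with DHT only, and no test of the split was made. KRT8 was the 1 type II keratin called higher in any comparison with dox, in DHT with dox against vehicle. At an unadjusted p under 0.05 it was also higher in dox against vehicle (log2 change 0.14). KRT18 lies on chromosome 12 with the type II genes, so the split by type is not the same as a split by chromosome.

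KRT10-AS1, a transcript named as antisense to KRT10, was above the limit on all 12 arrays with 1 of its 2 probes. Its mean intensity was 725 with DHT and dox, 976 with DHT, 857 with dox, and 1026 with vehicle. Its log2 change was -0.43 ± 0.097 in DHT with dox against DHT (SE, limma adjusted p = 0.00158) and -0.27 ± 0.097 in dox against vehicle (limma adjusted p = 0.0349), where that of KRT10 was 0.019 ± 0.086. These values are from the brighter KRT10-AS1 probe. The other, near the limit, averaged 151.1 with DHT and dox, 149.8 with DHT, 139.8 with dox and 141.8 with vehicle. Its mean with DHT and dox was thus not below that with DHT. Where on the genome these probes lie was not analysed here.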
